A study of Mus musculus with 6 samples.

Results

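The genes of glutathione metabolism and of the Nrf2 antioxidant response were examined in liver tumors and normal livers of C3H mice. The list held 45 genes of 34741 named on the arrays and was chosen by gene name, with earlier results of these data known. It was made up of 22 glutathione transferases, 5 enzymes of glutathione synthesis, reduction and breakdown, 5 glutathione peroxidases, 5 thioredoxin and peroxiredoxin genes, 4 catalase and superoxide dismutase genes, and 4 genes of the Nrf2 switch and its targets. Of these, 44 had at least 1 probe, Gsta1 had none of its own, and 41 had a probe clearly above background in every sample of either group and were tested.

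Total RNA of 3 normal livers and 3 macroscopic liver tumors was labeled with a single dye and hybridised to SurePrint G3 Mouse arrays, one sample per array. All mice were male C3H/HeN mice aged 74 to 75 weeks, F2 offspring of the control group of a gestational arsenic project, kept on a standard diet and tap water. The tumors arose spontaneously and carried a mutation of the proto-oncogene Ha-ras. Whether a tumor and a normal liver came from the same animal is not given in the sources used here, nor is the Ha-ras status of the normal livers.

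Glutathione is a small thiol that detoxifies reactive compounds either directly or through glutathione transferases, which join it to foreign and endogenous electrophiles, and glutathione peroxidases use it to reduce peroxides. The transcription factor Nrf2, encoded by Nfe2l2, is held down by its partner Keap1, which marks it for degradation. When oxidants or electrophiles modify Keap1, Nrf2 accumulates, pairs with small Maf proteins and binds antioxidant response elements, DNA motifs in front of genes such as Nqo1, Gclc and many transferases. The liver, which handles most xenobiotics, is among the organs richest in these enzymes.

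Values are given as expression values, the background-subtracted signal of a probe divided by the 75th percentile of the signals on its array, so that 1 is the level of that percentile. They compare arrays for the same probe and not the levels of different genes. Between 44.7% and 48.9% of the spots on an array, controls left out, were well above background, and 0 spots were saturated. Arrays correlated at 0.989 to 0.992 among normal livers, at 0.980 to 0.990 among tumors and at 0.914 to 0.950 between the groups, over the tested probes. The normal livers were all on slide 1 and the tumors all on slide 2, which means that slide and tissue type cannot be told apart in any value below. The median background signal was 42, 43 and 45 on the normal liver arrays and 23, 22.5 and 22 on the tumor arrays. Such a difference matters most for dim probes, and its part in their values was not tested. Of 6 tested hepatocyte markers 1, Apoa1, was called higher in the tumors (log2 fold change 0.90, limma's adjusted p = 0.00565) and 0 lower. Among all genes tested, 13.1% were called higher and 21.0% lower. Alb and Hnf4a were among those not called (-0.06 and 0.16, limma's adjusted p = 0.76 and 0.436), and Alb lay above 0 with normexp correction, quantile normalization and spike-in scaling. In bulk tissue, fewer cells of a type and less RNA per cell cannot be told apart.

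The antioxidant enzymes were lower in the tumors more often than higher. Of the 41 tested members, 16 were lower and 5 higher at an adjusted p under 0.05 in limma. Among all 18568 genes tested, 21.0% were lower, 13.1% higher and 34.2% called in either direction, against 51.2% of the tested members. The median log2 fold change was -0.49 over the tested members and -0.13 over all genes, and 29 members lay below 0. In 26 members the values of tumors and normal livers did not overlap, which 51.8% of all genes also showed. Scaling the arrays by their spike-in controls moved the median of all genes to 0.03 and the share of higher among called probes from 37.8% to 59.7%, while 5 members were called higher and 12 lower. With that scaling Gstp2, Gclm, Txn1, Prdx1 and Sod1 were no longer called and Gsta2 was.

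**Figure D1:**
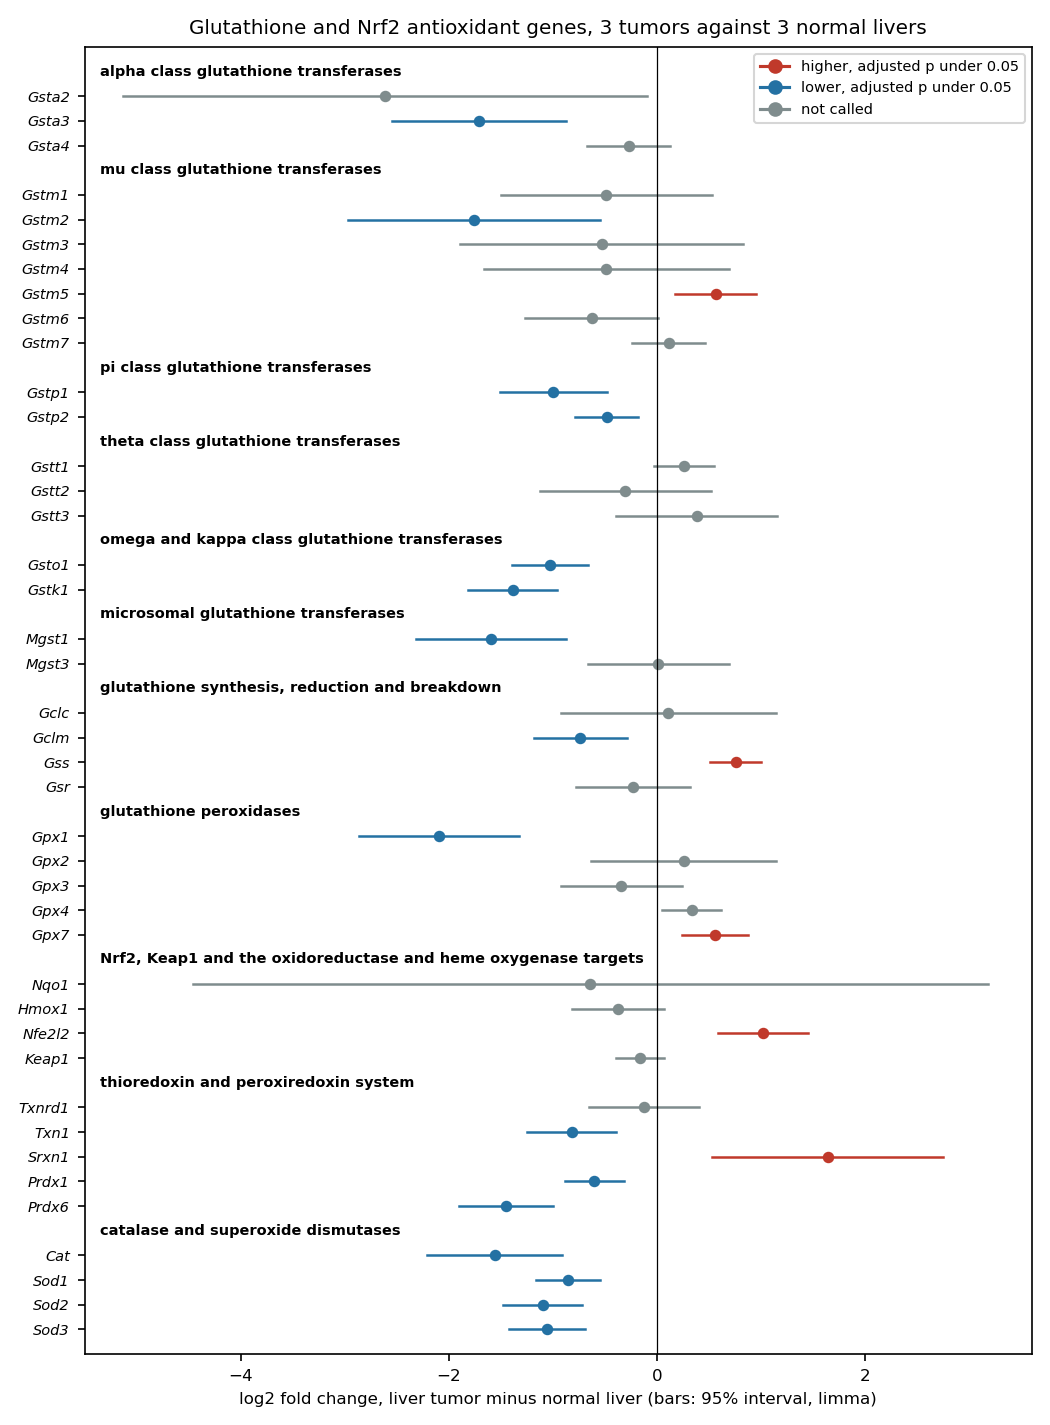
Log2 fold changes of the 41 tested members, liver tumor minus normal liver, on the horizontal axis, with genes grouped by role. Points are limma estimates from 3 tumors and 3 normal livers, bars are their 95% intervals and colour marks the call at an adjusted p under 0.05; all 4 catalase and superoxide dismutase genes lie left of 0, and the widest interval is that of Nqo1.

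Nfe2l2, which encodes Nrf2 itself, was higher in the tumors. It read 9.17, 11.6 and 13.5 in the normal livers and 26, 22.8 and 20 in the tumors, so that each tumor lay above each normal liver. The log2 fold change was 1.02 (SE, the standard error, 0.18 and limma's adjusted p = 0.0082), a 2.02-fold rise. Keap1, its repressor, read 16.9 ± 0.100 (SD, n = 3) in normal livers and 15.1 ± 0.366 (SD, n = 3) in tumors, a log2 fold change of -0.16 that was not called (95% interval -0.39 to 0.07, limma's adjusted p = 0.238).

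Maff and Mafk, small Maf genes, were higher as well. Of 8 partners and regulators on a further list, 4 were called higher and 1 lower, against 13.1% and 21.0% of all genes. Maff, a small Maf protein that pairs with Nrf2, read 0.332, 0.306 and 0.327 in the normal livers and 3.55, 1.87 and 2.46 in the tumors. Its tumors were all far above the normal livers, at a log2 fold change of 2.98 (SE 0.23 and limma's adjusted p = 5.36e-04), and of 1.95 with normexp background correction. Nfe2, a relative of Nrf2 best known from blood cells, read 0.546, 0.315 and 0.0952 against 4.55, 2.72 and 4.57. It differed by 3.92 on the log2 scale (SE 0.62 and limma's adjusted p = 0.00579). Its probe was well above background in 2 of 3 normal livers and in 3 of 3 tumors. The difference of Nfe2 was 2.68 with normexp correction and 3.21 without normal liver 3, and it remained called in both. Bach1, which competes with Nrf2 for the same DNA motifs, differed by 1.09 (SE 0.18 and limma's adjusted p = 0.00692). Mafk was called higher and Nfe2l1, another relative of Nrf2, lower, with log2 fold changes of 0.69 and -0.55. Nfe2l1 was not called with spike-in scaling or without normal liver 2 (limma's adjusted p = 0.301 and 0.0544). Mafg, a further small Maf gene, was not called (-0.34, limma's adjusted p = 0.191).

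The target genes most often used to read Nrf2 activity were not uniformly changed. Nqo1, a quinone reductase, read 0.330, 0.479 and 0.413 in the normal livers and 0.0237, 3.07 and 0.236 in the tumors. Tumor 1 was not well above background, tumor 3 lay below every normal liver and tumor 2 lay 6.40-fold above the highest normal liver. With such spread the log2 fold change of -0.64 had a 95% interval from -4.46 to 3.18 (limma's adjusted p = 0.785), and without tumor 1 it was 1.08. Hmox1, heme oxygenase, read 7.34, 6.65 and 7.73 against 7.24, 4.88 and 4.85, a log2 fold change of -0.38 that was not called (95% interval -0.82 to 0.06, limma's adjusted p = 0.159). Without tumor 1 Hmox1 was called lower, at -0.57 (limma's adjusted p = 0.0258).

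Srxn1 encodes sulfiredoxin, which restores over-oxidised peroxiredoxins, and was the member with the largest rise in the tumors. It read 12, 11 and 7.21 in the normal livers and 22, 63.8 and 20.3 in the tumors. Every tumor lay above every normal liver, and tumor 2 stood far above the others. The log2 fold change was 1.64 (SE 0.46 and limma's adjusted p = 0.0368). It was not called without normal liver 1, 2 or 3, with limma's adjusted p at 0.0700, 0.0821 and 0.104.

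The peroxiredoxins of the list and thioredoxin were lower in the tumors. Prdx6, a peroxiredoxin that uses glutathione, read 370, 476 and 400 in the normal livers and 119, 164 and 178 in the tumors, with no overlap. Its log2 fold change was -1.45 (SE 0.19 and limma's adjusted p = 0.00317), and its 3 tested probes, 1 of which is also listed for Prdx6b, ranged from -1.51 to -1.45. Prdx1, the abundant cytosolic peroxiredoxin, read 161, 174 and 176 against 100, 117 and 121, a log2 fold change of -0.60 (SE 0.12 and limma's adjusted p = 0.0117). Thioredoxin, Txn1, reduces peroxiredoxins and fell by 0.82 on the log2 scale (SE 0.18 and limma's adjusted p = 0.0162), from 96.5 ± 7.94 to 55.3 ± 11.3 (SD, n = 3 each). It was not called without normal liver 2 or 3 (limma's adjusted p = 0.0586 and 0.0505). Thioredoxin reductase, Txnrd1, read 24.8, 26.1 and 23.8 against 18.8, 32.3 and 19.6. Its tumor 2 was above and its other tumors below all normal livers, and the difference was not called (-0.12, 95% interval -0.65 to 0.40, limma's adjusted p = 0.697).

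A further list of thioredoxin, peroxiredoxin and glutaredoxin genes also held Gpx8, Msra, Msrb1 and Msrb2. Of its 15 genes, all tested, 8 were lower and 0 higher in limma, against 21.0% and 13.1% of all genes. Their median log2 fold change was -0.53. Lower were, among others, the glutaredoxin Glrx (-1.16), the mitochondrial and peroxisomal peroxiredoxin Prdx5 (-0.91) and the methionine sulfoxide reductase Msra (-0.88), with limma's adjusted p of 0.0270, 0.00538 and 0.00828. Glrx was not called without normal liver 1, 2 or 3 or tumor 2 (limma's adjusted p from 0.0613 to 0.0826), nor Msra with spike-in scaling (0.0515). With that scaling only Glrx and Prdx5 of the 15 genes stayed called (limma's adjusted p = 0.0267 and 0.0335).

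Srxn1, Prdx1 and Gclm, the regulatory subunit of the first enzyme of glutathione synthesis, are 3 members whose promoters hold antioxidant response element letters but whose mRNA moved in different directions. Their 250 bases before the transcription start are shown for that reason, from RefSeq on GRCm38.p6, all on the plus strand. Srxn1 lies at chr2:152105274-152105523, Gclm at chr3:122245307-122245556 and Prdx1 at chr4:116685349-116685598. Capitals mark matches to TGACNNNGC or TGAGNNNGC on either strand.
Srxn1: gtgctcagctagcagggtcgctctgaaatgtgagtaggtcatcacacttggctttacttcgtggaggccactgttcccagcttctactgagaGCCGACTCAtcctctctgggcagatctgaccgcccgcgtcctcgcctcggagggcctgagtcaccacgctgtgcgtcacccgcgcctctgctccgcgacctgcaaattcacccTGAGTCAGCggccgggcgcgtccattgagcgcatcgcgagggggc
Gclm: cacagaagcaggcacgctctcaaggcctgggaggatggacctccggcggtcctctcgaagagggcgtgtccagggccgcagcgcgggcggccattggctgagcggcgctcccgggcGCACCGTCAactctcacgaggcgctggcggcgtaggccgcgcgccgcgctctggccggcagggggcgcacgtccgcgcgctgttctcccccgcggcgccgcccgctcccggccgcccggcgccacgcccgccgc
Prdx1: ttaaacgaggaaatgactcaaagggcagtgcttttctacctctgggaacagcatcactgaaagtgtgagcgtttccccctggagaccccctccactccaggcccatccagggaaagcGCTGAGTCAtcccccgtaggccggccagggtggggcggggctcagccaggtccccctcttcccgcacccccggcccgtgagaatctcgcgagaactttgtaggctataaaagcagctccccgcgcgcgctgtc
Further matches began 28 bases after the start in Srxn1 and 15 bases after it in Prdx1. Over windows from 250 bases before to 50 after a start, TGACNNNGC was found in 13.99% of 27025 genes and in 11 of the 38 members that had a window (28.95%), and TGAGNNNGC in 19.85% of genes and 7 members (18.42%). In 0 member windows did 2 matches overlap. Either form was present in 30.76% of genes and 36.84% of members, namely in 3 of 5 members called higher, in 7 of 14 called lower and in 3 of 15 not called, besides Ggt1. Gsta4, Gstt2, Gclc, Gsr, Prdx6, Hmox1 and Sod3 had no window in the table. The match is a description of letters near a start and was not tested against the expression values.

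Genes of glutathione synthesis moved in opposite directions. Gss, glutathione synthetase, which joins glycine to complete the molecule, read 10.2, 10.6 and 9.84 in the normal livers and 16.9, 16.7 and 18.1 in the tumors. The groups were well apart and tight, and the log2 fold change was 0.76 (SE 0.10 and limma's adjusted p = 0.00356). Gclm read 7.37, 7.62 and 6.84 against 3.30, 4.93 and 5.09, a log2 fold change of -0.74 (SE 0.19 and limma's adjusted p = 0.0264). Leaving out normal liver 1, 2 or 3 ended that call, with limma's adjusted p at 0.0717, 0.0827 and 0.0572. Gclc, the catalytic partner of Gclm, read 64.8, 71.3 and 45.1 against 36.6, 120 and 59.5. Tumor 2 again was above every normal liver and tumor 1 below them, and no difference was called (log2 fold change 0.11, 95% interval -0.93 to 1.14, limma's adjusted p = 0.868). Gsr, which regenerates reduced glutathione, read 31.2 ± 2.01 against 27.4 ± 8.36 (SD, n = 3 each) and was not called either. Ggt1, which breaks glutathione down at the cell surface, was not well above background on any of the 6 arrays.

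Genes on a further list, of glutathione turnover and use, were mostly lower. Besides enzymes that make or break down glutathione, the list held Gstz1, Ptges, Ltc4s, Glo1 and Hagh, which are part of the counts. Of 15 tested, 10 were lower and 2 higher, against 21.0% and 13.1% of all genes. Their median was -0.56 on the log2 scale. With spike-in scaling only Cth, Ggt6, Oplah, Glo1 and Hagh were called lower (limma's adjusted p from 4.77e-04 to 0.0220). Ggct and Anpep were called higher with it. Cth, which makes cysteine for glutathione by transsulfuration, read 103, 128 and 101 in the normal livers and 16.9, 30.5 and 38.4 in the tumors. This difference of -2.02 (SE 0.30 and limma's adjusted p = 0.00491) was the largest on the list. Ggt6, of the gamma-glutamyltransferase family, and Oplah, which returns oxoproline to glutamate, were lower by -1.67 and -1.38 on the log2 scale (limma's adjusted p = 0.0442 and 0.00648). Ggt6 was not called without normal liver 1, 2 or 3 or tumor 2 (limma's adjusted p from 0.0661 to 0.125), with quantile normalization (0.0591) or with the replicate block (0.0501), and was -1.08 without tumor 1. Ggct, which releases oxoproline from gamma-glutamyl amino acids, was higher at 1.02.

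Among the 22 glutathione transferases, 7 of 19 tested members were lower and 1 was higher, against 21.0% and 13.1% of all genes. The abundant alpha class gene Gsta3, which conjugates aflatoxin epoxide in mice, read 804, 1006 and 783 in the normal livers and 149, 374 and 324 in the tumors. All tumors lay far below the normal livers, with a log2 fold change of -1.71 (SE 0.35 and limma's adjusted p = 0.0128). The microsomal Mgst1, a membrane-bound transferase and peroxidase, read 745, 750 and 700 against 146, 306 and 316, a log2 fold change of -1.60 (SE 0.30 and limma's adjusted p = 0.00994). Gstk1, the kappa class transferase of mitochondria and peroxisomes, read 76.0, 100 and 83.2 against 28.2, 31.2 and 40.2 (-1.39 with SE 0.18, limma's adjusted p = 0.00303). Gsto1, of the omega class, read 66.0, 68.8 and 83.1 against 31.0, 40.8 and 35.2 (-1.03 with SE 0.15, limma's adjusted p = 0.00477). These 4 genes stayed called when any array was left out.

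The alpha gene Gsta2 showed the largest estimated difference of the list without being called. It read 27.2, 40.1 and 33.7 in the normal livers and 0.992, 23.3 and 6.96 in the tumors. All tumors were below the normal livers, but they spread widely among themselves, with tumor 1 the lowest. The log2 fold change was -2.61 (SE 1.05, limma's adjusted p = 0.101) and became -3.66 without tumor 2 (limma's adjusted p = 0.0267). A probe of Gm10639 that the array design also lists for Gsta2 showed the same order of tumors, at 0.193, 7.51 and 5.45 against 23.9, 32.6 and 28.6 (limma's adjusted p = 0.0684). A probe of Gm3776 also listed for Gsta1, which has no probe of its own, read 21.2, 38.4 and 30.5 against 1.54, 37.4 and 6.75, with tumor 2 inside the normal range. Gsta4, which removes the lipid peroxidation product hydroxynonenal, was not called (-0.27, 95% interval -0.67 to 0.12).

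The mu class genes lie side by side on chromosome 3, in the order Gstm5, Gstm7, Gstm6, Gstm3, Gstm2, Gstm1 and Gstm4 with 0 other protein-coding genes between them (RefSeq, GRCm38.p6). Of these 7 genes, 1 was called lower and 1 higher, against 21.0% and 13.1% of all genes. Gstm2 was lower, at 53.7, 108 and 69.7 in normal livers and 10.6, 40.2 and 24.6 in tumors (-1.76 with SE 0.50, limma's adjusted p = 0.0389). Gstm5, at the end of the cluster, was higher, at 4.18, 5.13 and 4.64 against 7.33, 5.61 and 7.80 (0.56 with SE 0.16, limma's adjusted p = 0.0395). Both calls rested on most of the arrays. Without normal liver 1, 2 or 3 or tumor 1 or 3, limma's adjusted p was 0.0606, 0.114, 0.0877, 0.0507 and 0.0754 for Gstm2 and 0.108, 0.0672, 0.0921, 0.0976 and 0.0993 for Gstm5. The other 5 mu genes were not called, with log2 fold changes from -0.63 for Gstm6 to 0.11 for Gstm7.

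Gstm1, Gstm3 and Gstm4 shared a split among the tumors. Gstm1 read 349, 408 and 365 in the normal livers and 170, 544 and 204 in the tumors. Gstm3 read 46.5, 67.8 and 53.3 against 18.4, 95.2 and 31.7. Gstm4 read 22.5, 28.9 and 22.9 against 9.76, 39.4 and 14.1. For each of the 3 genes, tumor 2 lay above all normal livers and tumors 1 and 3 below all of them. Without tumor 2 all 3 were called lower, at -1.004, -1.19 and -1.07 on the log2 scale (limma's adjusted p = 0.0117, 0.0355 and 0.0230). Whether the probes of these related genes share transcripts was not tested. The probe standing for Gstm1 is placed on chromosome 5 by the array design, while its other probe is placed with the gene on chromosome 3 and showed the same split.

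Gstp1 and Gstp2, the neighbouring pi class genes on chromosome 19, were both lower. Gstp1 read 406, 260 and 325 in the normal livers and 131, 189 and 174 in the tumors (-0.996 with SE 0.21, limma's adjusted p = 0.0154). Gstp2 read 1103, 907 and 975 against 649, 762 and 719 (-0.49 with SE 0.13, limma's adjusted p = 0.0284), a smaller difference that was no longer called when any of the 6 arrays was left out (limma's adjusted p from 0.0514 to 0.0766). A further probe of Gstp2 gave -1.03, close to the value of Gstp1. That probe and the probe of Gstp1 are shown because they align over part of their length, and whether signal from either gene reaches both was not tested. Capitals mark the 35 bases over which they align, with 5 mismatches.
Gstp1 probe: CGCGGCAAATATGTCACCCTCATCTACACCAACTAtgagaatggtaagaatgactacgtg
Gstp2 further probe: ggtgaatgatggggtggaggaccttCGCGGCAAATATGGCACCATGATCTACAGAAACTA
A further probe, counted for Gstp1, is listed by the array design for both genes and gave -1.09.

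The theta class transferases Gstt1, Gstt2 and Gstt3 were not called, with log2 fold changes of 0.26, -0.31 and 0.38. Gstt1 was called higher with quantile normalization and as a mean over probes. A second Gstt1 probe, on another transcript of the gene, read 0.365, 0.446 and 0.426 in the normal livers and 0.895, 0.904 and 0.806 in the tumors. That probe was called higher (1.08, limma's adjusted p = 0.00215). Mgst3 did not differ detectably (0.01, 95% interval -0.67 to 0.69). Gsto2 read 0.163, 0.344 and 0.328 in the normal livers and 0.0284, 0.0263 and 0.0475 in the tumors. It was well above background in 2 of 3 normal livers and in 0 of 3 tumors, and was not tested. Mgst2 was well above background in 1 of 3 normal livers and 0 of 3 tumors and was not tested either.

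**Figure D2:**
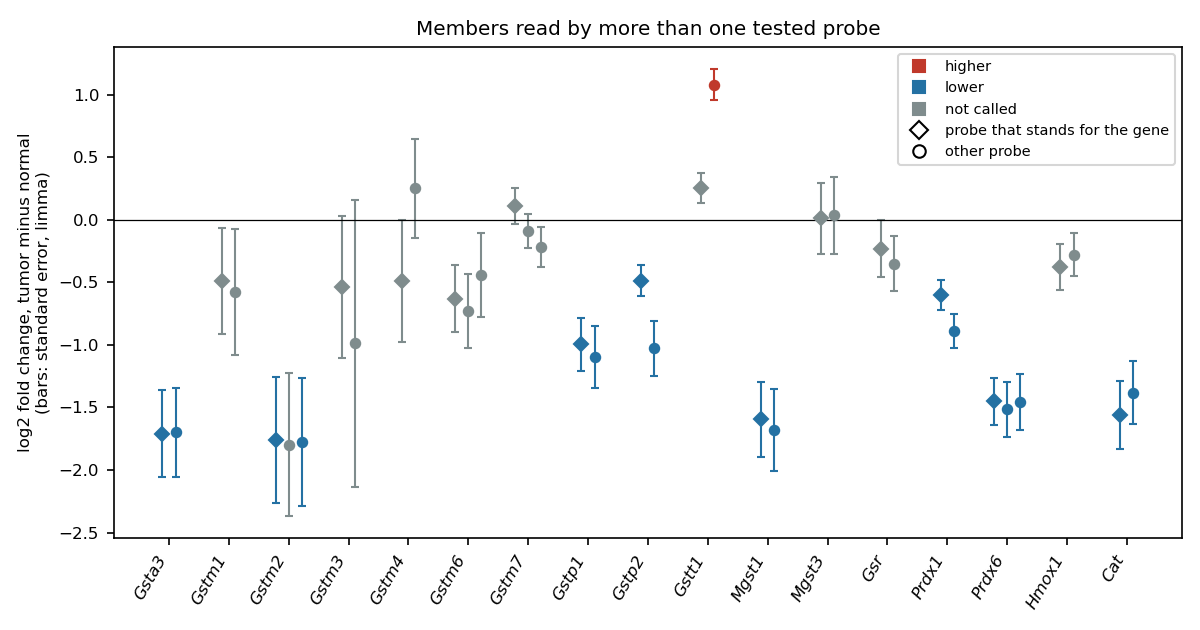
Log2 fold change, tumor minus normal, on the vertical axis for each tested probe of the 17 members that had more than 1, with standard errors from limma (3 arrays a group, 2 normal livers for 1 Gstm3 probe, whose spot on normal liver 1 was an outlier). Diamonds mark the probe that stands for the gene; the probes of 15 genes share a sign, and those of Gstm4 and Gstm7 do not.

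The glutathione peroxidases diverged by gene. Gpx1, the main cytosolic selenoenzyme that reduces hydrogen peroxide, read 1024, 948 and 982 in the normal livers and 137, 262 and 340 in the tumors. It had the largest fall among the called members, 4.27-fold (log2 fold change -2.09, SE 0.32, limma's adjusted p = 0.00514). Gpx7, a peroxidase of the endoplasmic reticulum, was higher at 0.56 (SE 0.13 and limma's adjusted p = 0.0211). Its signal was dim, 0.177 ± 0.0243 in normal livers and 0.259 ± 0.0108 in tumors (SD, n = 3 each), and with normexp background correction the log2 fold change was 0.08 (limma's adjusted p = 0.619). It was also not called without normal liver 1 or 2 or tumor 2 or 3, where limma's adjusted p was 0.0602, 0.0713, 0.0598 and 0.0551. Gpx4, which reduces lipid hydroperoxides in membranes, read 65.7, 80.6 and 69.6 against 86.7, 91.0 and 93.1. Its groups did not overlap but the difference of 0.33 was not called (95% interval 0.05 to 0.62, limma's adjusted p = 0.0749). Gpx4 was called higher with quantile normalization and with the trend in eBayes. Gpx2, an epithelial peroxidase known as an Nrf2 target, read 0.193, 0.223 and 0.198 against 0.179, 0.456 and 0.177, with tumor 2 alone above the normal livers. Plasma peroxidase Gpx3 was not called (-0.35).

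Catalase and all 3 superoxide dismutases were lower in the tumors. Cat, the peroxisomal enzyme that splits hydrogen peroxide, read 51.1, 64.1 and 60.3 in the normal livers and 13.1, 21.8 and 27 in the tumors (-1.56 with SE 0.27, limma's adjusted p = 0.00774). Sod2, the manganese enzyme of mitochondria, read 204, 221 and 218 against 81.3, 105 and 117 (-1.10 with SE 0.16, limma's adjusted p = 0.00422). Sod1, the copper and zinc enzyme of the cytosol, read 651, 700 and 686 against 326, 417 and 387 (-0.86 with SE 0.13, limma's adjusted p = 0.00479). The groups were apart for each of these genes, with tumor 1 the lowest. Sod3, the extracellular form, read 14.1, 15.2 and 15.6 against 5.89, 7.91 and 7.95 (-1.06 with SE 0.15, limma's adjusted p = 0.0042). All 4 stayed called when any array was left out.

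**Figure D3:**
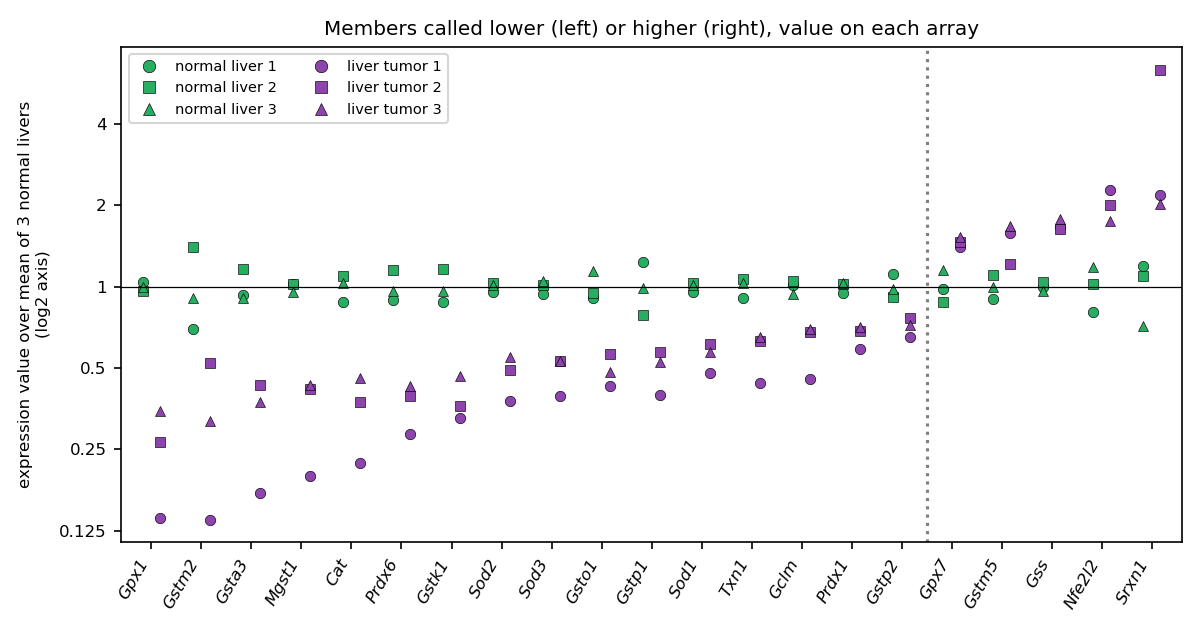
Expression value of the 21 called members on each of the 6 arrays, divided by the mean of the 3 normal livers, on a log2 vertical axis, with 16 lower members left of the dotted line and 5 higher members right of it. Green points are normal livers and purple points tumors; tumor 1 (circles) is the lowest point of each lower member, and tumor 2 (square) stands above the others for Srxn1.

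Tumor 1 was the lowest of the 3 tumors in 33 of the 41 tested members (80.5%), against 35.7% of all genes. The markers of pericentral hepatocytes, the cells around the central vein, were lowest in tumor 1 as well. Of 7 tested markers in the list of 8, 6 were lower, against 21.0% of all genes, and all 7 were lowest in tumor 1. Their median log2 fold change was -2.96. Their summed expression value, in which the brightest probes weigh most, was 1339 to 1423 in the normal livers and 37.8 to 424 in the tumors. Cyp2e1 alone made up most of each tumor sum, at 32.8 in tumor 1 and 329 and 383 in the others. Macrophage markers were lower too, 5 of 7, with sums of 100 to 172 in normal livers and 51.2 to 84.4 in tumors, and 1 of them was lowest in tumor 1. Tumor 1 was also the lowest tumor in 5 of 6 stellate cell and fibroblast markers, 3 of 3 cholangiocyte, 4 of 5 erythrocyte, 4 of 8 periportal hepatocyte, 3 of 6 hepatocyte, 1 of 6 endothelial, 1 of 3 neutrophil and 0 of 2 lymphocyte markers. No pericentral or macrophage marker was below background on all arrays. The part of these cells in the values of the members was not tested.

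Tumor 2 stood above the other tumors in part of the list. In 9 of 41 tested members, 21.95%, it lay at least 2-fold above the mean log2 value of tumors 1 and 3, which 1.51% of all genes did. These were Nqo1, Gsta2, Gstm3, Gstm4, Srxn1, Gstm1, Gclc, Gpx2 and Gstm2. Tumor 1, the lowest tumor in most members, enters that mean, so a low tumor 1 also enlarges the measure. In Gstm2, for example, the tumors read 10.6, 40.2 and 24.6. Tumor 2 was the highest of all 6 arrays in 9 members (21.95%), against 9.61% of genes. That set held Gsr and Txnrd1 in place of Gsta2 and Gstm2. Pericentral hepatocyte markers lay at least 2-fold above that mean in tumor 2 more often, in 5 of 7 tested (71.4%). In these markers tumor 1 was always the lowest tumor, tumor 2 was the highest tumor in 1 of 7 and the highest array in 0. The pattern was noticed in the values and rests on 1 tumor, so it is given without a test.

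Some known Nrf2 targets outside the list had the same feature. Of 20 tested, 5 (25%) were at least 2-fold higher in tumor 2 than in the mean of the others, against 1.51% of all genes. Cbr3, a carbonyl reductase, read 0.432, 0.576 and 0.654 in the normal livers and 0.525, 16.4 and 0.469 in the tumors. Abcc4, an efflux pump, read 0.240, 0.336 and 0.304 against 0.470, 2.69 and 0.345. Cbr1 read 24.5, 29.3 and 27.3 against 26.2, 71.0 and 27.9. Tumors 1 and 3 lay within the normal range in Cbr3 and Cbr1 and above it in Abcc4, and tumor 2 stood apart in each. Aox1 and Blvrb were the other two, and Blvrb was called lower without tumor 2 (limma's adjusted p = 0.0200).

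**Figure D4:**
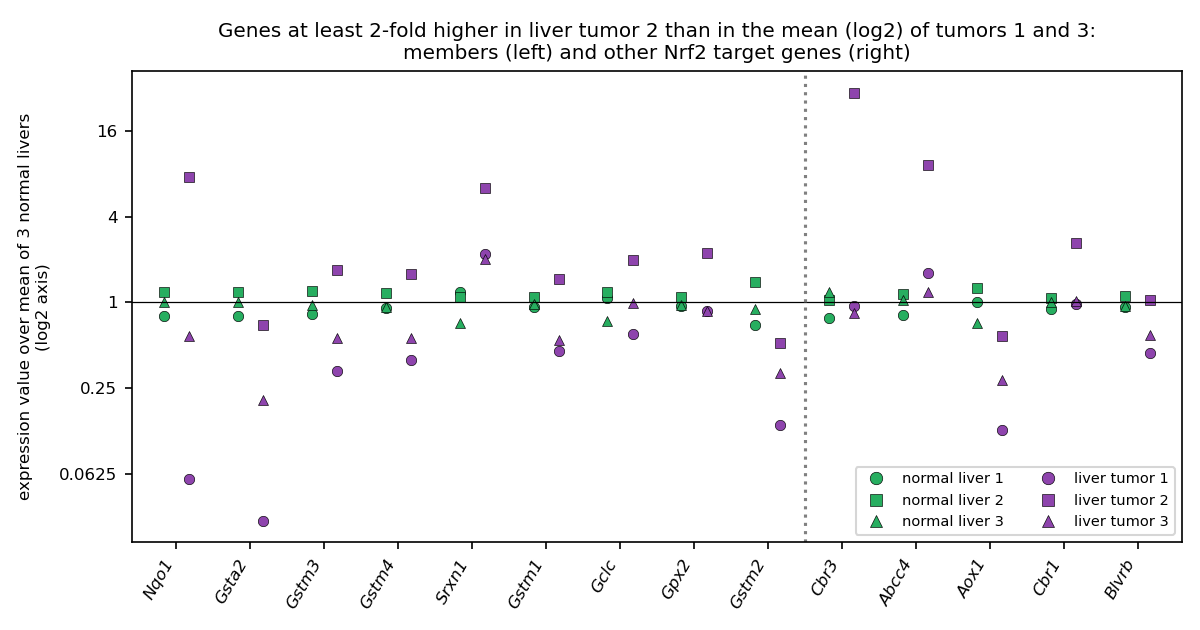
Expression value on each array, divided by the mean of the 3 normal livers, on a log2 vertical axis, for the 9 members (left) and 5 other Nrf2 target genes (right) that were at least 2-fold higher in tumor 2 than in the mean of tumors 1 and 3. Purple squares are tumor 2, which is above all normal livers for Nqo1, Srxn1 and Cbr3 and below them for Gsta2, Gstm2 and Aox1.

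Some Nrf2 targets on that list were called between the groups. Of the 20 tested, 4 were higher and 8 lower, against 13.1% and 21.0% of all genes. Their median was -0.43 on the log2 scale. With spike-in scaling the 4 higher genes stayed called. Of the 8 lower genes only Abcc3, Aox1 and Ugdh stayed called with it (limma's adjusted p = 0.0114, 0.0165 and 0.0240). G6pdx, the entry enzyme of the pentose phosphate pathway, which supplies NADPH for glutathione reduction, read 1.16, 1.22 and 1.70 in the normal livers and 13.2, 20.1 and 19.0 in the tumors. Each tumor was far above each normal liver (3.67 with SE 0.22, limma's adjusted p = 2.19e-04). Ptgr1, a reductase of lipid-derived enals, was higher at 2.43 (SE 0.12 and limma's adjusted p = 1.22e-04). Pgd, the next dehydrogenase of the same pathway, was higher at 1.39, and Osgin1 at 0.88 (limma's adjusted p = 0.0416). Osgin1 was not called without normal liver 2 or 3 or any tumor (limma's adjusted p from 0.0522 to 0.114), nor with the replicate block (0.0904). The ferritin chains Fth1 and Ftl1, which store iron, were lower at -0.85 and -0.81, and Aox1, aldehyde oxidase, was lower at -1.81 (SE 0.53 and limma's adjusted p = 0.0425). With spike-in scaling neither ferritin was called (limma's adjusted p = 0.0614 and 0.109), nor was Ftl1 with quantile normalization (0.0684) or without normal liver 2 (0.0603). Aox1 was not called with quantile normalization (0.0587) or without any array other than tumor 2 (0.0556 to 0.121).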

How the data were processed

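The authors hybridised total RNA of 3 normal livers and 3 liver tumors to 1-colour Agilent arrays. They deposited intensities from Feature Extraction (the file headers give version 10.7.3.1, the submitters' processing notes 12.0.3.1), already corrected for background and spatial trend, and a table of ratios of these to each array's 75th percentile. Here each deposited intensity was divided by the 75th percentile over all spots of its array and taken to log2. Control and outlier spots were dropped and spots of a probe averaged. Probes detected above background in every sample of either group (24902 of 55681) were compared with limma 3.58.1 in R 4.3.3 (lmFit and eBayes, two-sided), adjusted by Benjamini-Hochberg over all of them, at a threshold of 0.05. A gene was read by its brightest tested probe. The code was tested on simulated data.

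Gene names came from RefSeq GRCm38.p6, through the accession for 27235 probes, the symbol for 3581 and a synonym for 565, and otherwise from the array design. No label says that the samples of a group came from separate animals, so p-values measure the spread between these samples. The members, further lists and markers were chosen with earlier results of these data known. All members were to be named, with up to 3 called genes of each further list. Other genes named, and the motif letters, were chosen after values or sequences were seen.

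Alternatives were quantile normalization, normexp background correction (offset 50), scaling by spike-in controls, the percentile without control spots and other filters on dim probes. Further ones were the deposited ratios, the replicate block, eBayes with a trend, the mean over probes and the methods' t-test. A 2-fold limit was also set, and each array was left out in turn. The methods of the paper name a paired t-test, which was computed here unpaired.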

Additional observations from a re-analysis of the deposited data

How the results depend on the processing

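Of the 21 called members, 14 (12 lower, 2 higher) stayed called when any array was left out, and 0 changed sign under any alternative. Left-out arrays gave 2 to 4 members higher, 12 to 19 lower, and 4954 (without normal liver 2) to 7171 called probes, against 5, 16 and 8239, and 13 to 24 lower and 9 to 10 higher genes on the other pathway lists, against 27 and 10. The counts on those lists under each alternative were added after seeing the data. Without tumor 2, Gsta2, Gstm1, Gstm3 and Gstm4 were also called lower. Without a filter on dim probes 4674 probes were called, with 2 members higher and 10 lower and 10 lower genes on the other lists. Scaling by spike-in controls left 5063 called probes (59.7% higher, against 37.8%) and 10 lower genes on the other lists. The methods' t-test, unpaired here, with its 2-fold and expression limits left 2036 probes, 1 member higher and 9 lower genes on the other lists. A 2-fold limit on limma's calls left 3478 probes, with 2 members higher, 10 lower, and 9 lower genes on the other lists. The cause of these differences was not tested, beyond the larger number of probes tested without the filter and the added limits of size.

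Among the members, changes of sign were seen only in those not called. Nqo1 was 0.17 with normexp and 1.45 in the methods' t-test, and ranged from -2.43 to 1.08 with arrays left out. Txnrd1 was 0.033 with quantile normalization and 0.0311 with spike-in scaling, and ranged from -0.38 to 0.016. Mgst3 was -0.00077 in the methods' t-test and ranged from -0.25 to 0.18. Gstm7 was -0.064 as a mean over probes. With arrays left out, Gstt2 ranged from -0.60 to 0.066, Gclc from -0.35 to 0.51 and Gpx2 from -0.20 to 0.49. Of the other named genes, whose alternatives were added after seeing the data, Cbr3 ranged from -0.14 to 2.43, and Alb was 0.056 with normexp, 0.082 with quantile normalization and 0.096 with spike-in scaling.

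The deviations of same-numbered samples correlated at 0.0687, 0.132 and 0.0506, which cannot show whether samples came from the same animal. As no pairs are named, the numbers were not taken to pair the samples. With the replicate block 7021 probes were called, with 4 members higher and 15 lower, and Gstm5 and Gstp2 were not called. Array number limits the precision, and signal over background limits dim probes such as those of Gpx7, Gpx2 and Nqo1.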

Other observations

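Marker genes of other liver cells gave the following values, beside 21.0% lower and 13.1% higher among all genes. In each sum the brightest probes weigh most, so it is not a measure of cell number. Of 6 tested hepatocyte markers 1 was higher and 0 lower, with summed expression values of 6696 to 7503 in the normal livers and 6845 to 7214 in the tumors. Periportal hepatocyte markers were lower for 6 of 8, with sums of 2047 to 2228 and 646 to 1008. Endothelial markers were lower for 2 of 6, with sums of 104 to 117 and 80.0 to 88.7. Markers of stellate cells and fibroblasts were lower for 3 of 6 and higher for 2, with sums of 80.9 to 99.9 and 22.9 to 43.0. Their median log2 fold change was -0.24. Cholangiocyte (3 tested), T and B lymphocyte (2 tested) and neutrophil markers (3 tested) gave 0 calls, with sums of 1.62 to 1.96 against 1.28 to 1.65, 6.16 to 8.05 against 6.21 to 8.13, and 4.74 to 7.23 against 5.14 to 17.4. Of 5 tested erythrocyte markers 1 was lower, with sums of 208 to 528 and 177 to 360. On all 6 arrays Cd8a was not well above background.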
